A study of Mus musculus with 62 samples.

Results

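The comparison set the hippocampus of APP NL-G-F mice against that of C57BL/6J mice, called APP and WT below, at 3 months of age. Its members were chosen by label, as the long-RNA libraries of 3 APP mice and 2 WT mice at that age, and are 5 of the 62 libraries of the series. The 6 and 12 month groups of the same genotypes (6 libraries at each age, 3 per genotype) brought the mouse long-RNA libraries to 17, and all 17 entered the fit. Per the labels, left and right hippocampi of a mouse were pooled, its RNA was split into a long and a short fraction, and 3 months was taken as a stage before symptoms with very few plaques. No treatment is named for any of these mice, and their sex is not among the labels.

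The APP NL-G-F allele carries a humanised amyloid beta sequence with the Swedish, Iberian and Arctic mutations in the mouse App gene, so that the gene's own promoter drives it in every cell that normally makes App. App is a membrane protein from which beta-secretase and then gamma-secretase release amyloid beta, and plaques of this peptide later gather microglia and astrocytes around them. The hippocampus is built from the granule neurons of the dentate gyrus and the pyramidal neurons of fields CA1 to CA3, and is bordered by choroid plexus, white matter and thalamus. In bulk RNA, fewer cells of a type and less RNA per cell cannot be told apart.

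Levels are given as scaled TPM, which is TPM (the authors' transcript abundance, relative to gene length and library total) divided by a factor for each library, the median ratio of its genes to their mean over libraries. Log2 changes are differences of log2(scaled TPM + 1), APP minus WT, and understate the change of genes with low levels. Genes averaging 1 TPM or more over the 17 libraries were tested, 17840 in all, and called where limma gave a Benjamini-Hochberg adjusted p below 0.05. Read numbers cannot be had from TPM, but relative depth (coverage over FPKM) was 1.91 to 3.04 in APP and 1.93 to 2.66 in WT. Coding genes held 34.5% to 37.6% of TPM in APP libraries and 37.3% and 45.0% in WT libraries, and the predicted noncoding gene Gm23935 held 9.90% to 24.3% and 2.45% to 10.95%. Across genes, APP replicate 1 correlated with the other 4 libraries at r = 0.933 to 0.95, below the 0.957 to 0.968 of the other pairs. In that library 910 genes lay over 1 log2 unit from the mean of the other APP libraries, against 456 and 532 genes in APP replicates 2 and 3.

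The targeted gene and the sex-linked transcripts were examined first. App (ENSMUSG00000022892) was at 245, 314 and 276 scaled TPM in the 3 APP libraries and at 255 and 252 in the 2 WT libraries. The groups overlapped, and the log2 change of 0.13 was not called (limma adjusted p 0.868). On TPM as deposited the App change was -0.067, so its direction depends on the scaling. Since the allele replaces coding sequence and App keeps its own promoter, the level of App RNA does not check the genotype labels. Xist, the noncoding RNA of the inactive X chromosome, was at 70.2 to 91.6 in all 5 libraries. The Y-linked Ddx3y was at most 0.0526 and Eif2s3y was listed at 0 in all 5, so the genotypes at 3 months did not differ in carrying Y-linked transcripts. Hsf1, the heat shock transcription factor that the study silenced in cultured cells, was at 10.6, 15.5 and 12.6 in APP and at 13.6 and 14.8 in WT, with an adjusted p of 0.772.

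Of 17840 genes, 54 (0.303%) were called between APP and WT at 3 months, 22 higher in APP (0.123%) and 32 lower (0.179%). The median change over all tested genes was 0.0036 and 50.5% of changes lay above 0, against a median of -0.16 on TPM as deposited. The calls came close to the threshold: 33 of the 54 had an adjusted p above 0.04. Without adjustment 2384 genes (13.4%) had a p below 0.05. In 4842 genes (27.1%) the 3 APP libraries did not overlap the 2 WT libraries, with APP above WT in 2455 (13.8%) and below in 2387 (13.4%). The calls rest on a spread estimated over all 6 mouse groups: a fit of the 5 libraries alone called 4 genes, none of them among the 54, whose adjusted p there ran from 0.121 to 0.559. Of the 54 genes, 51 are protein-coding, as are 12961 of the 17840 tested genes.

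**Figure D1:**
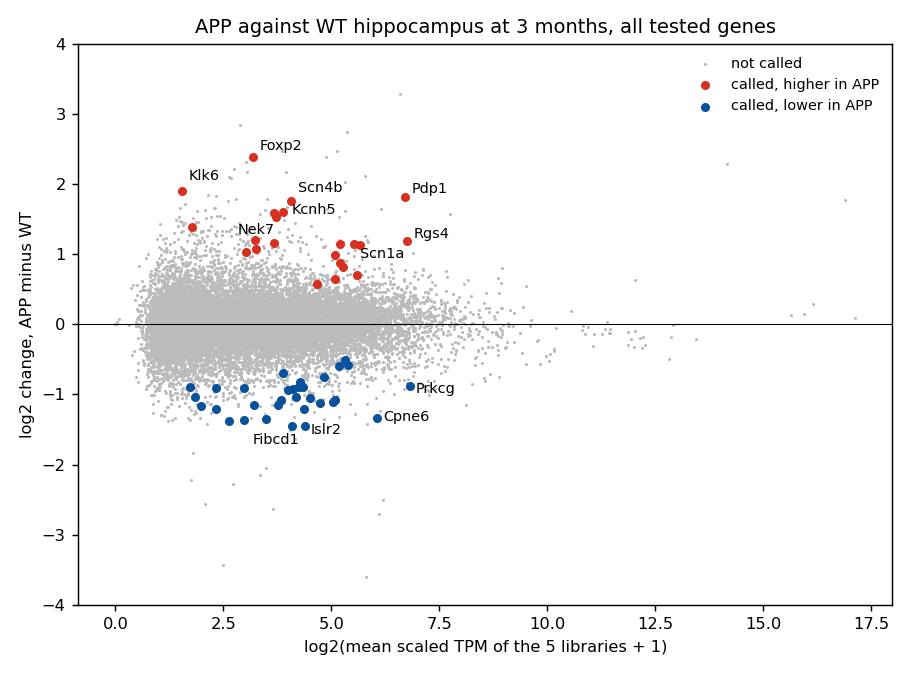
Log2 change at 3 months (vertical axis, APP minus WT) of each tested gene against its mean level over the 5 libraries (horizontal axis, log2 scaled TPM + 1). Grey points are genes not called, red points the 22 called higher and blue points the 32 called lower in APP, and 2 genes lie outside the vertical range. Uncalled genes reach changes as large as the called ones, because the spread between libraries enters the call.

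Nek7, Scn1a and Islr2 had the lowest adjusted p. Nek7 (ENSMUSG00000026393, chromosome 1, 138482875 to 138620141, GRCm38) encodes a serine/threonine kinase known for mitosis and for assembly of the NLRP3 inflammasome. Its level was 19.1, 16.6 and 14.97 scaled TPM in APP and 5.30 and 5.01 in WT. The APP libraries lay close together, with a mean of 16.9 ± 2.08 (SD, n = 3) against 5.16 ± 0.21 for WT (SD, n = 2), and the log2 change was 1.53 ± 0.13 (SE, limma adjusted p 0.000134). Exons of Nek7 overlap the antisense gene Gm28501, and reads of the pair cannot be told apart where strand is not given. Scn1a, on chromosome 2, encodes the sodium channel Nav1.1, which carries much of the sodium current of fast-spiking interneurons. It was at 63.0, 63.1 and 47.1 in APP and at 24.9996 and 25.4 in WT, a log2 change of 1.15 ± 0.14 (SE, adjusted p 0.00413). Islr2, on chromosome 9, encodes a membrane protein with leucine-rich repeats that takes part in axon growth and guidance. It was at 9.15, 15.1 and 10.2 in APP and at 32.0 and 32.7 in WT, and fell by 1.45 ± 0.18 on the log2 scale (SE, adjusted p 0.00498). Nek7 and Scn1a stayed called whichever of the 5 libraries was left out, and Islr2 lost its call in the fit without WT replicate 2. Fitted on the 5 libraries alone, none of these genes was called. With the libraries of 3 and 6 months alone, Scn1a and Islr2 lost their calls. With APP replicates 1 and 2 both left out, the Scn1a change was 0.88. Islr2 shares exons with Islr on its own strand, so its reads may be split between them.

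The 250 bases before the RefSeq start of these genes and of Fibcd1 are shown, because they are the 3 genes with the lowest adjusted p and the largest fall on the log2 scale. They come from RefSeq on GRCm38.p6, all on the minus strand, at chr1:138619758-138620007 for Nek7, chr2:66440838-66441087 for Scn1a, chr9:58204320-58204569 for Islr2 and chr2:31846006-31846255 for Fibcd1. The RefSeq start of Nek7 lies inside the span that the files give for the gene, so its window does too, and the window of Scn1a overlaps the end of its span. Capitals mark the GC box GGGCGG on either strand, the core of Sp-family binding sites.
Nek7: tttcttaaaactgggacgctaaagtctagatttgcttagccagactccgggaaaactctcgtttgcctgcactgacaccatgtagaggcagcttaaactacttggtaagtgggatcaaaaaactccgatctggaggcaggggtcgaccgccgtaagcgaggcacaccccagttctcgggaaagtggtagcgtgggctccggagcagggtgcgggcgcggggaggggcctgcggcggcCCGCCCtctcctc
Scn1a: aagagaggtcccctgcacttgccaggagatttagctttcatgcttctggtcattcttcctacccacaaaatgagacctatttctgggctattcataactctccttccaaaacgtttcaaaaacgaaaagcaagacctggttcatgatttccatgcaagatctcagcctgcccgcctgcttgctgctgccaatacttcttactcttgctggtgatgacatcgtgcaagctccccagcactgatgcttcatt
Islr2: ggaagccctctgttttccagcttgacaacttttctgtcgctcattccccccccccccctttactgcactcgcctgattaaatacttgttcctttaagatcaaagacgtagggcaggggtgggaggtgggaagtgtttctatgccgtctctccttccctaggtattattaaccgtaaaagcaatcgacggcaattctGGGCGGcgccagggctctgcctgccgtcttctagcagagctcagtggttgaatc
Fibcd1: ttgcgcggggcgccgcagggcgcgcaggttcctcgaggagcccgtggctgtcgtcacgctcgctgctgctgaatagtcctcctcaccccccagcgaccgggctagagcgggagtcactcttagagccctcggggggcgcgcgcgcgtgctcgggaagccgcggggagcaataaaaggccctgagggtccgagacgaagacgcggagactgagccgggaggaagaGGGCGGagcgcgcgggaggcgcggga
Nek7, Islr2 and Fibcd1 have 1 GC box each and Scn1a has 0. GC content was 58.8% for Nek7, 46.8% for Scn1a, 52.4% for Islr2 and 71.6% for Fibcd1, and Islr2 has 3 starts in the table, of which 1 is shown. A promoter was found for 18 of the 22 genes higher in APP, 8 of them with a GC box, and for 19 of the 32 lower genes, 14 with a GC box. Of all 27025 genes with a promoter in the reference, 35.4% have a GC box in at least 1 window of this length. That set was not limited to the genes tested here, so the shares are not of like sets, and their difference was not tested. The heat shock element was searched on both strands because the series concerns Hsf1. It was taken as GAA, TTC and GAA with any 2 bases between these units. It was found for 0.514% of the 27025 genes and for 0 of the 18 and 0 of the 19. These matches describe the letters in the windows and say nothing of binding.

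The largest rises were in a transcription factor, a protease and a metabolic phosphatase. Foxp2, a forkhead transcription factor of striatal, thalamic and deep cortical neurons, was at 21.4, 10.8 and 5.78 scaled TPM in APP and at 1.03 and 1.66 in WT. All APP libraries lay above WT but spread over a wide range, and the log2 change was 2.39 ± 0.44 (SE, limma adjusted p 0.0417). Klk6, a serine protease of mature oligodendrocytes, was at 5.25, 3.28 and 0.973 in APP and listed at 0 in both WT libraries (adjusted p 0.0456). Pdp1, a phosphatase that activates pyruvate dehydrogenase, was at 251, 104 and 86.4 in APP and at 33.2 and 39.9985 in WT, a log2 change of 1.82. These 3 genes share an order, with APP replicate 1 highest and APP replicate 3 nearest to WT.

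Several called channels and signalling genes were higher in APP. Scn4b, a sodium channel beta subunit, was at 33.4, 24.2 and 10.9 in APP and at 4.94 and 5.93 in WT, a log2 change of 1.76 (adjusted p 0.0358). Kcnh5, a potassium channel of the ether-a-go-go family, was at 13.4, 26.0 and 18.6 in APP and at 5.05 and 5.96 in WT, a log2 change of 1.60 (adjusted p 0.0160). Rgs4, which shortens G protein signalling, was at 160, 111 and 144 in APP and at 54.4 and 65.3 in WT, a log2 change of 1.184 (adjusted p 0.0174). In Kcnh5 and Rgs4 APP replicate 3 also lay well above both WT libraries. Pvalb, the calcium buffer of fast-spiking interneurons, was at 57.1, 43.8 and 37.5 in APP and at 20.2 and 19.8 in WT, a log2 change of 1.14. Coch, on the CA3 marker list, was at 9.62 to 13.4 in APP and at 4.40 and 4.02 in WT. Hbb-bs, a beta-globin of red blood cells, was at 49.9 to 74.0 in APP and at 29.1 and 27.1 in WT, and the close similarity of the globin genes makes its own share of reads uncertain. The remaining large rises were Hs3st5, which sulfates heparan sulfate, with a log2 change of 1.39, the deubiquitinase Usp29 with 1.16, the hyaluronan-binding Tnfaip6 with 1.07 and the snoRNA Gm26230 with 1.58. Ermn, a cytoskeletal protein of myelinating oligodendrocytes, rose by 0.88, from 23.7 and 22.5 in WT to 57.8, 34.6 and 41.0 in APP.

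The falls included markers of CA1 pyramidal and dentate granule neurons. Fibcd1, a chitin-binding receptor and a marker of CA1 pyramidal neurons, was at 7.26, 7.15 and 13.4 in APP and at 27.5 and 24.6 in WT, a log2 change of -1.45 (limma adjusted p 0.0265). Il16, a cytokine precursor on the dentate gyrus list, was at 2.82, 8.62 and 7.08 in APP and at 17.6 and 14.5 in WT, a log2 change of -1.35. Cpne6, a calcium-dependent membrane protein of dendritic spines, was at 22.3, 50.8 and 52.2 in APP and at 101 and 99.0 in WT, a log2 change of -1.33. Both WT libraries lay above every APP library in these genes, and APP replicate 1 was lowest in Il16 and Cpne6.

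Receptors, transporters and adhesion genes made up much of the rest. Kit, the receptor of stem cell factor, was at 8.40, 13.2 and 17.2 in APP and at 29.7 and 30.4 in WT, a log2 change of -1.21. Tspan18, a tetraspanin, was at 1.71, 4.04 and 2.64 in APP and at 10.2 and 7.12 in WT, a log2 change of -1.38. The sodium/proton exchangers Slc9a2 and Slc9a4, both on chromosome 1, changed by -1.21 and -1.17. The heparan sulfate proteoglycan Gpc4, on the X chromosome, fell by 1.15 on the log2 scale, the sialyltransferase St6galnac5 by 1.11, the dermatan and chondroitin sulfotransferase Ust by 1.08 and Ksr1, a scaffold of the Ras pathway, by 1.07. Tnfaip8l3, a lipid transfer protein, changed by -1.16 and the snRNA Gm23573 by -1.36. Nrp2, a receptor of semaphorins, was at 9.74, 12.0 and 10.9 in APP and at 18.9 and 17.5 in WT, a log2 change of -0.70 (adjusted p 0.0451). Shisa6, an auxiliary protein of AMPA-type glutamate receptors, was at 13.5, 15.1 and 16.2 in APP and at 32.9 and 31.2 in WT, a log2 change of -1.05 (adjusted p 0.0174). Of the 54 called genes, 17 share exon bases with another annotated gene, among them Usp29, Ermn, Il16, Slc9a4, St6galnac5 and Ksr1, and their levels are uncertain to that extent.

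**Figure D2:**
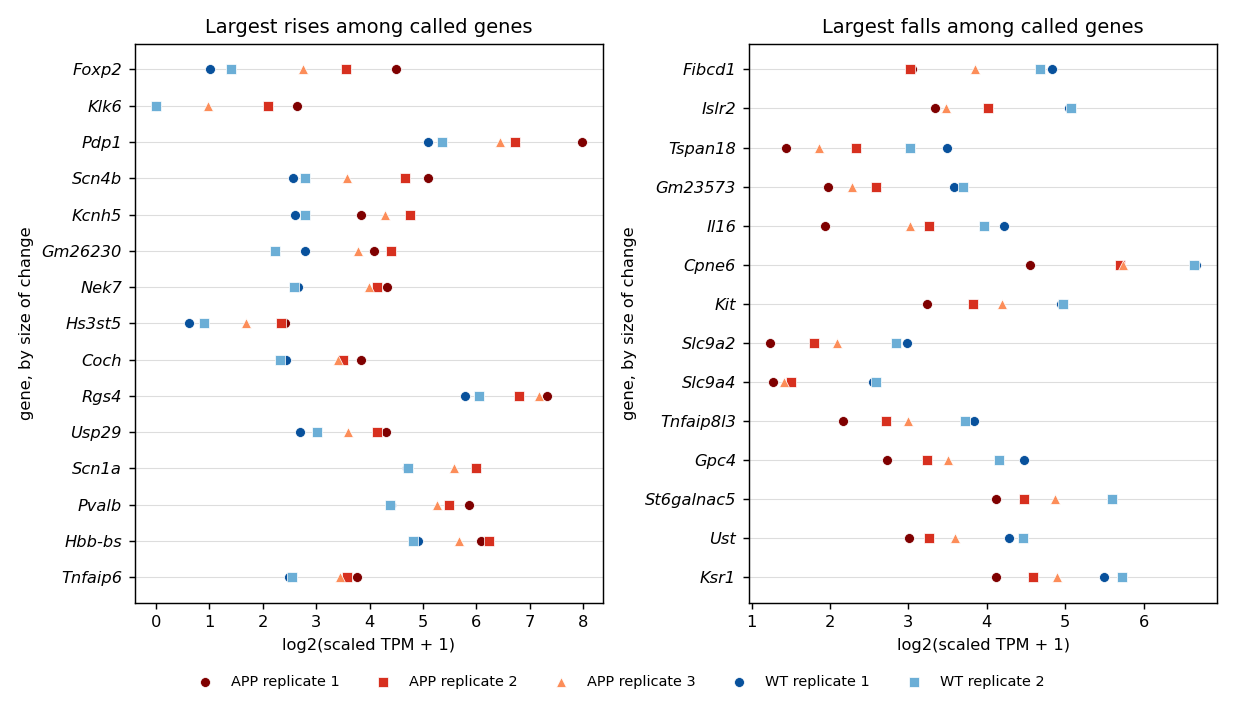
Level in each library (horizontal axis, log2 scaled TPM + 1) of the 15 largest rises and of 14 of the 15 largest falls among called genes (vertical axis, ordered by size of change). Red and orange points are the 3 APP libraries and blue points the 2 WT libraries. The groups do not overlap in any of these genes (27.1% of all genes), which were picked as the largest called changes between the same groups. APP replicate 3 is often the APP library nearest to WT.

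The 6 and 12 month libraries showed where the 3 month groups stood. Of the 22 genes higher in APP, 13 had all 3 APP libraries above every one of the 12 older libraries while WT was not below them, and 7 had both WT libraries below all 12 while APP was not above them. Scn1a had both, and Klk6 had neither. Of the 32 genes lower in APP, 17 had the APP libraries below all 12, 4 had the WT libraries above all 12, 3 (Islr2, St6galnac5 and Ust) had both and 8 had neither. The 12 older libraries entered the fit, so they are not independent of the calls. Genes were called for a wide gap at 3 months against a small spread within groups, so such counts are partly built in. The same counts were not made over all tested genes.

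Nek7, Scn1a, Islr2 and Shisa6 show this division gene by gene. Nek7 averaged 16.9, 17.9 and 16.4 scaled TPM in APP at 3, 6 and 12 months, while in WT it averaged 5.16 at 3 months, 14.4 at 6 months and 14.3 at 12 months. The 2 young WT libraries were thus the low ones among 17, the lowest older library being at 13.2. Scn1a averaged 57.8 in APP at 3 months and 30.7 and 30.3 at 6 and 12 months, against 25.2, 32.1 and 32.8 in WT. Both young WT libraries, at 24.9996 and 25.4, lay below the lowest older library at 26.9. Islr2 averaged 11.5, 22.6 and 23.5 in APP and 32.4, 17.7 and 19.7 in WT, and Shisa6 averaged 14.9, 32.1 and 30.2 in APP and 32.0, 21.8 and 25.7 in WT.

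At the older ages the called genes had medians near 0 or of the opposite sign. The 22 genes higher at 3 months had a median change of -0.021 at 6 months, with 10 above 0 and 1 called, Hbb-bs, which was lower (over all genes at 6 months 1.66% were called, 0.42% higher and 1.24% lower). At 12 months their median was -0.072, with 7 above 0 and 0 called by limma, against 79 calls (0.443%) over all genes at that age. The 32 genes lower at 3 months had a median change of 0.30 at 6 months, with 28 above 0 and 2, Doc2b and Ccnjl, called higher, and 0.019 at 12 months, with 18 above 0 and 0 called. The difference itself was tested as the change at 12 months minus the change at 3 months. For it limma called 13 of 17840 genes (0.0729%), among them 4 of the 54: Nek7, Scn1a, Islr2 and Shisa6. This difference contains the 3 month change by which the 54 were chosen, so the overlap is not independent of that choice. The WT libraries of 6 and 12 months carry Y-linked transcripts (Ddx3y at 18.7 to 28.0) and lack Xist (at most 0.52), unlike all other mouse libraries, so age cannot be told apart there from this difference between the libraries.

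**Figure D3:**
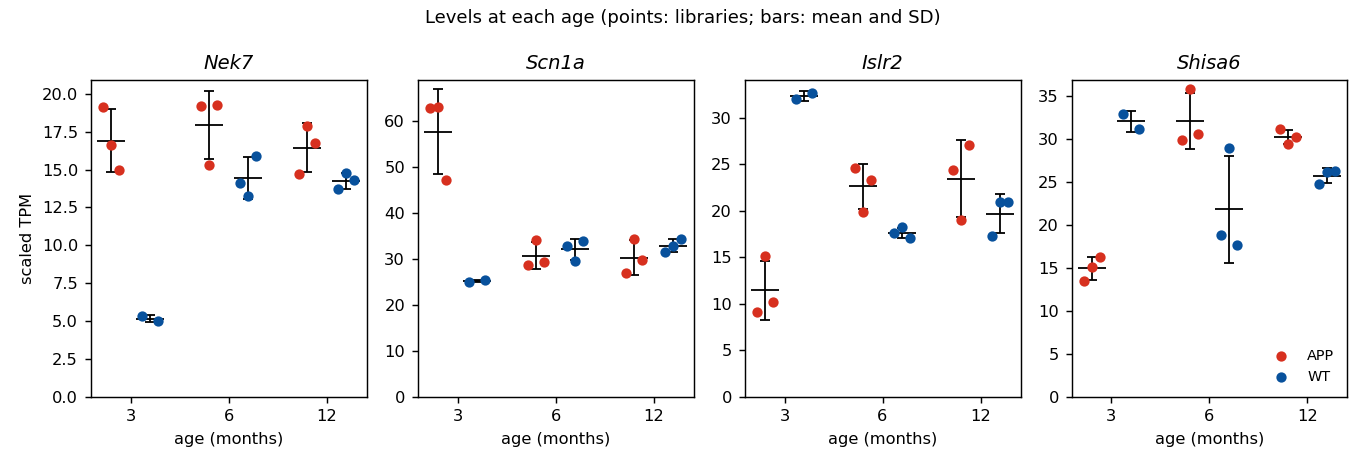
Scaled TPM (vertical axis) of Nek7, Scn1a, Islr2 and Shisa6 at 3, 6 and 12 months (horizontal axis), with points for libraries and bars for mean and SD (n = 3 per group, 2 for WT at 3 months). At 3 months APP and WT are apart in all 4 genes, in Nek7 with WT below all older libraries and in Scn1a with APP above and WT below them.

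Marker genes of brain regions and cell types were summed and compared in each library, since they show what tissue the libraries hold. Markers of dentate granule, CA1, CA2 and CA3 neurons were detected in all 5, as the labelled tissue has. The thalamic list, 16 genes of which 14 were tested, summed to 898, 313 and 113 scaled TPM in APP replicates 1, 2 and 3 and to 92.9 and 128 in WT. APP replicates 1 and 2 lay far above WT, while replicate 3 lay between the 2 WT libraries. All 14 tested changes were above 0, with a median of 1.56 against 0.0036 for all genes, and 6 of 14 had the groups apart (13.8% of all genes in that direction), but none was called. Among the most abundant, Prkcd, a protein kinase C of thalamic relay neurons, was at 190, 46.6 and 11.5 in APP and at 10.8 and 9.65 in WT. Rora, a nuclear receptor, was at 101, 44.5 and 20.2 in APP and at 13.1 and 14.9 in WT. Without APP replicate 1 the list's median was 0.83, and without replicates 1 and 2 it was 0.066.

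Striatal markers followed the same order of libraries. The 12 listed genes, of which 11 were tested, summed to 361, 131 and 99.3 in APP and to 77.6 and 89.7 in WT. All 11 tested changes were above 0 with a median of 1.12, and 7 had the groups apart (13.8% of all genes in that direction). Foxp2 alone was called, and the next most changed of the abundant members, the enkephalin precursor Penk, was at 89.4, 20.7 and 16.2 in APP and at 7.70 and 11.2 in WT. Without APP replicate 1 the median was 0.34, and without replicates 1 and 2 it was 0.25.

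Markers of CA1 and dentate granule neurons ran the other way. The 10 CA1 genes summed to 111, 166 and 236 in APP and to 273 and 259 in WT, none was above 0, 6 had the groups apart (13.4% of all genes in that direction) and the median was -0.86, with Fibcd1 called. Wfs1, an endoplasmic reticulum protein that marks CA1, was at 19.5, 18.1 and 25.7 in APP and at 32.2 and 46.0 in WT, and was not called. The CA1 median was -0.58 without APP replicate 1 and -0.17 without replicates 1 and 2. Dentate granule markers, 14 genes, summed to 164, 204 and 172 in APP and to 264 and 220 in WT. Their median was -0.37, 1 of 14 lay above 0, and 7 had all APP libraries below WT (13.4% of all genes in that direction). Il16 was called, and the median stayed at -0.39 without APP replicates 1 and 2. CA2 and CA3 lists had medians of 0.11 and 0.07, and the subiculum list -0.25.

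The part of these markers in the 54 calls was not tested, but the calls were counted without the libraries concerned. Leaving out APP replicate 1 left 22 calls, 17 of them among the 54, and leaving out replicate 3 gave 376, which include all 54. With APP replicates 1 and 2 both left out, so that the 1 remaining APP library is assumed to vary like the other groups, limma called 14 genes, of which 4 (Nek7, Kcnh5, Islr2 and Il16) are among the 54. That fit held 20 of the 22 genes higher in APP and all 32 lower genes, and Klk6 and Hs3st5 were not tested in it. The direction of the genes it held was fixed by their choice, since their groups do not overlap. Nek7 was 1.38 higher, Kcnh5 1.60 higher and Islr2 changed by -1.58 there, while Foxp2 changed by 1.55 (adjusted p 0.444), Scn4b by 0.90 (0.306) and Fibcd1 by -0.91 (0.341).

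Apart from blood genes, other cell types gave smaller or uneven differences. Mature oligodendrocyte markers, 12 genes, summed to 2870, 1697 and 2374 in APP and to 1674 and 1578 in WT. All 12 changes were above 0, 6 with the groups apart (13.8% of all genes in that direction), and the median was 0.47. Without APP replicate 1 that median was 0.27, and without replicates 1 and 2 it was 0.62. Klk6 and Ermn were called, and Mobp, a protein of compact myelin, was at 660, 437 and 477 in APP and at 423 and 341 in WT without a call. Of 11 markers of oligodendrocyte precursors 6 lay above 0, with a median of 0.13. All 5 blood genes lay above 0, with a median of 1.13 and sums of 148 to 224 in APP and of 73.3 and 87.6 in WT. The blood median was 0.81 without APP replicates 1 and 2. Choroid plexus genes summed to 3232, 897 and 841 in APP and to 2017 and 1335 in WT, a spread within each group larger than the difference. The 6 pituitary hormone genes listed, of which 3 were tested, summed to 20.8, 3.15 and 26.4 in APP and to 3.90 and 3.05 in WT. Interneuron markers had a median of -0.33, which became -0.017 without APP replicate 1 and 0.029 without replicates 1 and 2. Gad1 and Gad2, the enzymes that make GABA, lay above WT in all APP libraries, and Cnr1, the cannabinoid receptor, lay below. Medians were 0.04 for astrocytes, 0.14 for homeostatic microglia and 0.23 for endothelium, with no call.

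**Figure D4:**
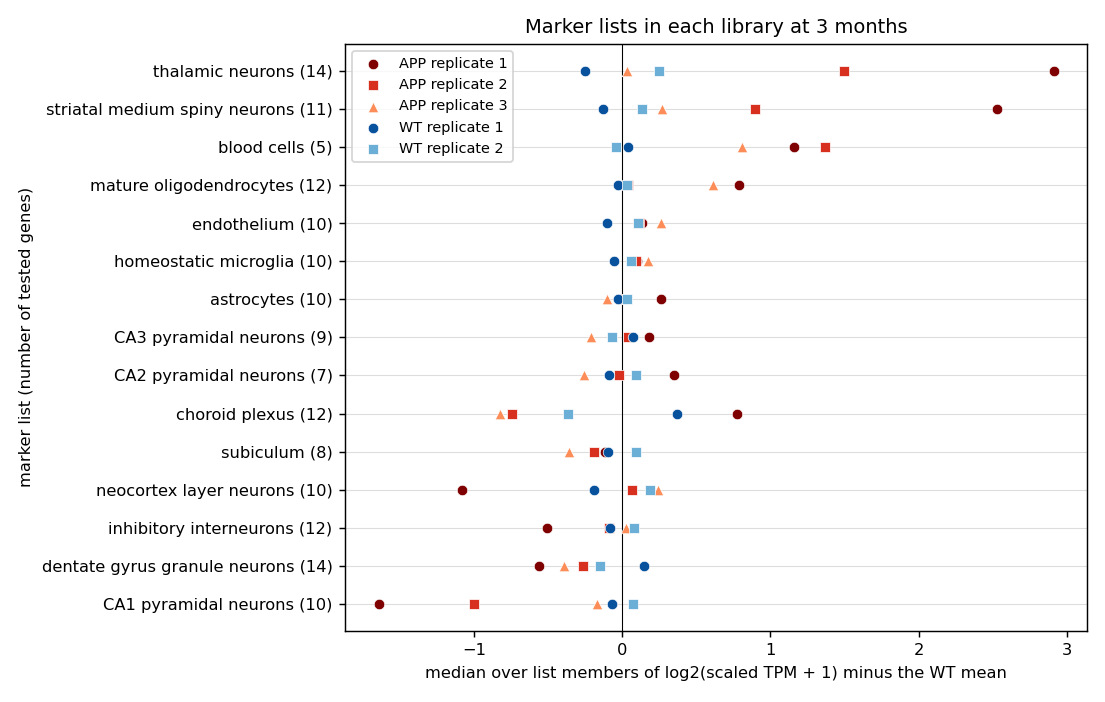
Median over the tested members of each marker list (vertical axis, number of genes in brackets) of log2(scaled TPM + 1) minus the WT mean (horizontal axis), for the 3 APP libraries in red and orange and the 2 WT libraries in blue. Thalamic and striatal lists reach 2.91 and 2.53 in APP replicate 1 and 0.033 and 0.27 in APP replicate 3, and the CA1 list reaches -1.64 in replicate 1 and -0.17 in replicate 3.

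Genes of the glial response to plaques showed no call at 3 months. Of 17 tested genes of plaque-associated microglia 12 lay above 0, 2 had all APP libraries above WT and 2 had them below (13.8% and 13.4% of all genes). The median was 0.09, against 0.26 at 6 months and 1.83 at 12 months, when 12 were called (0.443% of all genes were called at 12 months). At 6 and 12 months the WT libraries carry Y-linked transcripts and the APP libraries do not, so genotype cannot be told apart there from this difference. Trem2, the lipid receptor of microglia, was at 3.38, 2.71 and 4.27 scaled TPM in APP and at 3.28 and 1.69 in WT. Tyrobp, its signalling partner, was at 5.77, 7.82 and 9.12 in APP and at 6.78 and 6.89 in WT. Apoe, the lipid carrier, was at 361, 282 and 289 in APP and at 307 and 299 in WT, and the groups overlapped in all 3. Cst7, a protease inhibitor that plaque-associated microglia make, was at most 1.39 in any of the 5 libraries.

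Reactive astrocyte genes had a median of -0.08 over 8 genes at 3 months and 1.00 at 12 months, when 4 were called (0.443% of all genes). Gfap, the intermediate filament of astrocytes, was at 67.8, 122 and 109 in APP and at 121 and 108 in WT. Serpina3n, a secreted protease inhibitor, was lower in every APP library, at 6.54, 10.2 and 9.32 against 15.8 and 17.5, but was not called (log2 change -0.88, adjusted p 0.119). Complement genes had a median of 0.12 over 9 genes at 3 months and 1.34 at 12 months, when 5 were called (0.443% of all genes). At 3 months C1qa, a subunit of the first component, was at 16.9 to 21.3 in APP and at 12.0 and 23.1 in WT. All 8 interferon response genes lay below 0, with a median of -0.20, and none had the groups apart. MHC class II genes had a median of -0.10 over 5 genes.

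No gene listed as making or clearing amyloid beta was called. Of 15 tested genes 8 lay above 0, with a median of 0.07 and 0 called (0 of 15, against 0.303% of all genes). The beta-secretase gene Bace1 changed by -0.17, the presenilin gene Psen2 by -0.52, the alpha-secretase gene Adam10 by -0.10, and the amyloid-degrading proteases Mme and Ide by 0.62 and 0.31, all with adjusted p of at least 0.403. The 14 heat shock factors and chaperones had a median of 0.02, 7 above 0, and Hspa8, the constitutive Hsp70, was at 432 to 549 in APP and at 433 and 598 in WT. Within 20 Mb of App on chromosome 16, 142 genes were tested, of which 0 were called, 41 had the groups apart (27.1% of all genes did) and the median change was -0.030. Chromosome 7 held the most calls, 9 of 1412 tested genes (0.303% of all genes were called), and also the most tested genes. Chromosomes 8, 13, 16, 18 and 19, with 482 to 900 tested genes each, held 0. The spread of calls over chromosomes was not tested.

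Activity-dependent genes divided the APP libraries. Of 12 immediate-early genes 10 lay above 0, with a median of 0.38, and none was called. All APP libraries lay above WT in 3 and below in 1 (13.8% and 13.4% of all genes). Arc, which acts at synapses after strong activity, was at 20.4, 138 and 128 in APP and at 52.2 and 68.2 in WT. Egr1, an activity-induced transcription factor, was at 20.97, 79.8 and 91.9 in APP and at 30.4 and 47.4 in WT. In both, APP replicate 1 was the lowest of the 5 libraries and APP replicates 2 and 3 were the highest, and the list's median was 0.76 without replicate 1. The 12 plasticity genes had a median of -0.09, which became 0.24 without APP replicate 1, and Rgs4 was the 1 called.

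Among neuronal gene families, most members of each did not pass the test. Of 18 glutamate receptor genes 7 lay above 0, 6 had all APP libraries below WT and 2 had them above (13.4% and 13.8% of all genes), with a median of -0.11 and none called. That median was -0.014 without APP replicate 1. The AMPA receptor genes pointed in different directions: Gria1 was at 93.0, 132 and 157 in APP and at 234 and 205 in WT (log2 change -0.81, adjusted p 0.0708), and Gria4 at 47.8, 36.3 and 34.7 in APP and at 19.97 and 26.8 in WT (0.74, adjusted p 0.102). Of 20 sodium and potassium channel genes 2 were called, Scn1a and Scn4b, and 9 lay above 0. Scn2a, the sodium channel of excitatory axons, was at 82.8, 120 and 132 in APP and at 104 and 113 in WT. Of 26 axon guidance and adhesion genes 2 were called lower, Islr2 and Nrp2, 8 had all APP libraries below WT and 2 had them above (13.4% and 13.8% of all genes), with a median of -0.21 that became -0.099 without APP replicate 1. Epha7, an ephrin receptor, was at 27.9, 43.3 and 50.2 in APP and at 65.5 and 63.5 in WT without a call. Synaptic vesicle genes had a median of -0.19 over 12 genes, which became -0.035 without APP replicate 1 and 0.0060 without replicates 1 and 2. Neuropeptide genes had a median of -0.02 over 15 genes, which became 0.19 without APP replicate 1, and neither list held a call.

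The short-RNA libraries of the same mice hold counts at positions of B2, a short interspersed repeat that RNA polymerase III transcribes and whose RNA the study follows. Totals were 1673, 2355 and 924 B2 counts in APP and 1099 and 1115 in WT, for 119 positions, and these are not sequencing depths. Position 45 held 2.21%, 2.29% and 0.65% of the counts in APP and 3.73% and 1.88% in WT. The share at positions above 20, called internal here, was 82.5% (95% Wilson interval 80.6% to 84.2%), 85.9% (84.4% to 87.2%) and 84.8% (82.4% to 87.0%) in APP. In WT it was 89.0% (87.0% to 90.7%) and 81.7% (79.3% to 83.9%), so the 2 WT mice lay outside the range of the APP mice on opposite sides. No molecular identifiers are named for these libraries, so the intervals reflect counting error alone. It is not stated if fragment ends or covered bases were counted. The means were 84.4% ± 1.75 (SD, n = 3) and 85.3% ± 5.15 (SD, n = 2), a difference of -0.93 percentage points and the exact permutation test (two-sided) gave p = 1.0, where 10 arrangements allow no p below 0.1. Of 34 positions averaging 10 or more counts, 0 (0%) were called by edgeR's quasi-likelihood test, 0 had an unadjusted p below 0.05, and DESeq2 called 0 as well. The lowest adjusted p was 0.997 by edgeR and 0.978 by DESeq2. Fitted on the 5 libraries alone, edgeR also called 0 of 57 positions, with 2 at an unadjusted p below 0.05 and a lowest adjusted p of 0.0693.

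**Figure D5:**
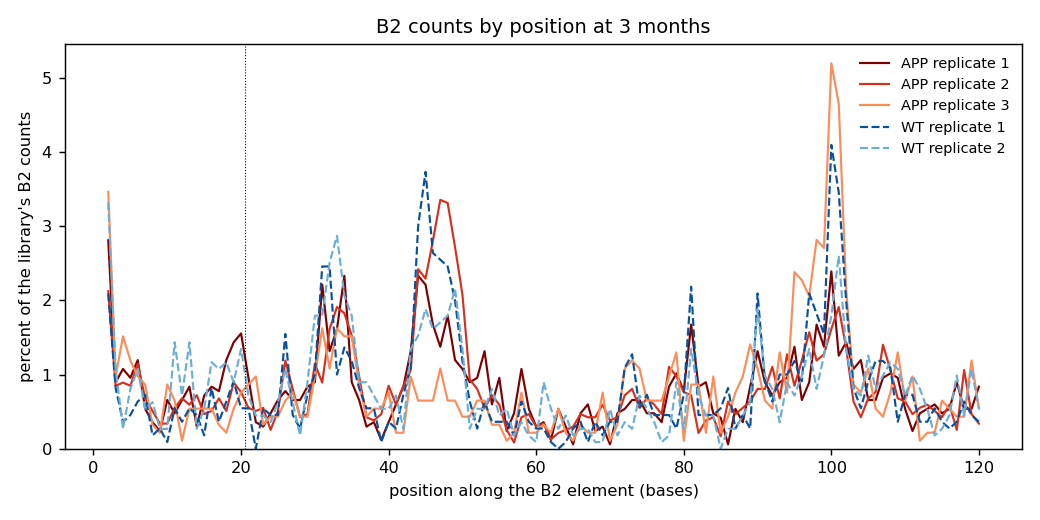
Percent of each library's B2 counts (vertical axis) at positions 2 to 120 of the B2 element (horizontal axis, bases), with solid red and orange lines for the 3 APP libraries and dashed blue lines for the 2 WT libraries. The dotted line marks the start of the internal positions, above 20. Libraries of 1 genotype differ from each other as much as the genotypes do, as at position 100, where APP replicate 3 reaches 5.19% and APP replicate 2 1.61%.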

How the data were processed

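Long-RNA libraries of 17 mice and short-RNA libraries of the same mice were used, and libraries of HT-22 cells were not used. The libraries, gene lists and tests were chosen with earlier results of these data known. Per the submitters' processing notes, the tools were FastQC, cutadapt 1.18, BWA 0.7.17, HISAT2 2.1.0, bedtools 2.26.0 and StringTie 1.3.4d, and the build was GRCm38 (mm10). The sources used here give neither the step of each tool nor the strand setting. Per the file headers, the authors deposited coverage, FPKM and TPM per gene and library. The authors deposited B2 counts per position, unscaled. TPM was summed per gene identifier, and 53934 of 53975 identifiers are in GENCODE M21.

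Log2(scaled TPM + 1) of genes averaging 1 TPM or more over 17 libraries was fitted with limma 3.58.1 (R 4.3.3, trend and robust, 6 groups, 11 residual degrees of freedom). Positions of B2 were tested with edgeR 4.0.16 (B2 total as library size) and DESeq2 1.42.0, and shares by exact permutation (Python 3.11.15). Scripts were tested on simulated data. Named genes are the 15 largest rises and 15 largest falls among called genes, called list members, up to 4 abundant members of a list, and checks, some of which are not reported here. Alternatives covered scaling, pseudocount, filters, weights, subsets of libraries, a replicate block and leaving out each library. Genes outside that rule (Cst7, Trem2, Tyrobp, Bace1, Psen2, Mme, Ide, Gria4, Shisa6, Doc2b and Ccnjl) were picked after values were seen.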

Additional observations from a re-analysis of the deposited data

Results flagged for a closer look

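For 13 genes the change between APP and WT at 12 months differed from that at 3 months (limma, Benjamini-Hochberg adjusted p below 0.05 over 17840 genes). Values are log2 changes at 12 months minus those at 3 months. No cause was tested, and at 12 months genotype cannot be told apart from the presence of Y-linked transcripts in WT.

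Nek7 differed by -1.35 and Scn1a by -1.27, both being called higher in APP at 3 months and not called at 12 months, where their log2 changes were 0.19 and -0.12. Islr2 differed by 1.68 and Shisa6 by 1.28, both being called lower in APP at 3 months and not called at 12 months, where their log2 changes were 0.23 and 0.22. The 3 month change enters each difference, so these differences are not independent of the 3 month calls.

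Another 4 genes were higher in APP at 12 months and were called there too. Ccl6, a chemokine, differed by 3.05, from 0.615 scaled TPM in APP and 0.906 in WT at 3 months to 11.1 and 0.719 at 12 months. Gpnmb, a glycoprotein of lipid-laden macrophages, differed by 2.73, from 0.922 and 1.49 to 9.81 and 1.10. Serpina3n differed by 2.05, from 8.67 in APP and 16.6 in WT to 42.0 and 18.2. Cyth4, an exchange factor of ARF proteins in immune cells, differed by 1.11, from 3.88 and 5.76 to 9.89 and 6.00. In these 4 genes the mean of APP lay below that of WT at 3 months, without a call there.

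The remaining 5 genes are sex-linked. Xist differed by 6.60, and the Y-linked Kdm5d, Uty, Ddx3y and Eif2s3y by -3.63, -4.07, -4.54 and -4.66. At 3 months Xist averaged 78.7 in APP and 90.9 in WT, and at 12 months 109 and 0.306.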

How the results depend on the processing

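With 2 WT mice the 3 month comparison depends on the fit. The 54 calls became 71 on TPM as deposited (8 higher, 63 lower, 37 of the 54 among them), 34 with no filter, 15 with array weights, 4 with the 5 libraries of 3 months alone, 1 with the libraries of 3 and 6 months alone and 14 without APP replicates 1 and 2, an alternative added after seeing the data. Leaving out each 3 month library gave 7 (without WT replicate 2) to 376 calls (without APP replicate 3), with 13 without WT replicate 1 and 22 without APP replicate 1. Leaving out each 6 or 12 month library, also added after seeing the data, gave 15 to 46. The 13 genes whose change differed between 12 and 3 months became 81 on TPM as deposited, 22 with no filter and 22 with array weights, and 9 to 70 when each library was left out. The higher counts were 70 without APP replicate 3 of 3 months and 52 without APP replicate 2 of 6 months. Of the 54 genes, 2 were called in each of the 5 fits without a 3 month library and 15 in at least 3 of these. Among checks for named genes at 3 months, 514 kept their side of the threshold, 460 lost the call and 2 turned direction: App, -0.067 on TPM as deposited, and Ddx3y, -0.092 with quantile normalisation. For list medians 574 stayed within the spread between libraries and 55 moved. The B2 internal difference of -0.93 became 1.45 with positions above 40, and -4.58 to 2.71 when each library was left out, turning positive without APP replicate 1 (0.0284) or without WT replicate 1 (2.71). Replicate numbers of APP and WT come from different mice, so they do not pair samples of 1 mouse. Deviations of same-numbered libraries correlated at 0.050 and 0.071. The deviations of 2 WT libraries mirror each other, so these values cannot show whether same-numbered libraries share a batch. With the replicate block 62 genes were called at 3 months (41 of the 54), 15 for 12 minus 3 months and 0 B2 positions, and the internal difference was -1.15. The causes of these shifts were not tested. Read depth per gene is unknown for the long-RNA values, and B2 totals of 924 to 2355 limit single positions.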

Other observations

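Mitochondrial genome mRNAs were abundant and varied between mice of the same genotype. The 13 mRNAs summed to 54571, 41258 and 46027 scaled TPM in APP and to 41438 and 62491 in WT, a range within WT larger than the difference between the genotypes. Mt-Co1, a subunit of cytochrome c oxidase, was at 12347, 8763 and 9883 in APP and at 9438 and 14661 in WT. Of the 13 changes 2 lay above 0, with a median of -0.13 and no call.

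Genes outside the neuronal layers of the hippocampus were uneven among the APP mice. The 8 ependymal genes listed, some of them genes of motile cilia and 6 of them tested, summed to 41.6, 13.1 and 15.9 in APP and to 23.6 and 14.7 in WT. Choroid plexus genes were likewise highest in APP replicate 1. Ttr, the thyroid hormone carrier of choroid plexus, was at 2260, 572 and 532 in APP and at 1362 and 940 in WT. Neocortical layer markers were lowest in APP replicate 1, with a sum of 93.2 against 206 and 231 in the other APP mice and 168 and 220 in WT. Lamp5, which marks neurogliaform interneurons and superficial layers, was at 8.01, 45.0 and 51.5 in APP and at 11.6 and 22.7 in WT. Meningeal fibroblast genes summed to 111, 74.2 and 70.0 in APP and to 115 and 101 in WT.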
